A study of Glycine max with 10 samples.

Results

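The genes described here belong to the soybean loci Rhg1 and Rhg4, and their RNA was measured in leaves of soybean (Glycine max) with and without soybean aphids (Aphis glycines; SBA). The members are 3 Rhg1 genes on chromosome 18, namely AAT (Glyma.18G022400), alpha-SNAP (Glyma.18G022500) and WI12 (Glyma.18G022700), and the Rhg4 gene SHMT (Glyma.08G108900) on chromosome 8. They were chosen by identifier, as 4 of the 55983 genes of the count table, and all 4 passed the expression filter that 37468 genes passed. Positions of the genes in the genome build of the files were not used here.

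Rhg1 and Rhg4 are known for resistance to the soybean cyst nematode, a root parasite. Rhg1 is a segment that resistant soybeans carry as a tandem repeat, so that such plants hold extra copies of AAT, alpha-SNAP and WI12 and more of their RNA. AAT is a predicted amino acid transporter, alpha-SNAP helps to take apart the SNARE complexes that fuse vesicles with membranes, and WI12 is related to a wound-inducible protein. Rhg4 encodes a serine hydroxymethyltransferase, an enzyme that converts serine to glycine and passes a carbon unit to folate. RNA levels depend on gene copies and on regulation together, so they do not count copies. Whether either cultivar carries nematode resistance is not given in the sources used here.

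RNA from 3 replicates was pooled for each of 10 libraries, 1 per condition, from a susceptible cultivar (LD12-15838R in the labels, spelled otherwise in the paper) and a resistant cultivar with the aphid resistance gene Rag1 (LD12-15813Ra). Control plants without aphids and plants that received 50 aphids of biotype 2 (virulent on Rag1) as inducer and 15 of biotype 1 (avirulent) as response gave leaves of both cultivars at day 1 and at day 11. Biotype 1 alone (15 aphids, no inducer) was present in both cultivars at day 11 only. With no second library of any condition, the spread in the tests below came from what the model left unexplained. In the main model this is how far the inducer and biotype 1 differences vary between combinations of cultivar and day. P-values are set against that spread after edgeR drew each gene's value toward a trend over all genes. They therefore rest partly on the spread of other genes. In that spread, treatment, plant and technical differences cannot be told apart. The leaf label was not checked against marker genes, since the sources used here pair no identifiers with gene names beyond the 4 members.

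Totals of estimated counts lay between 23394131 and 25665595 per library, and counts of the members between 1245 and 17916. Levels are given as normalised CPM, which are library-size-scaled counts (CPM) after adjustment by edgeR's TMM factors. These factors ranged from 0.772 in the resistant control of day 1 to 1.15 in the resistant inducer library of day 1, so values of these libraries depend most on the scaling. Clustering in the paper, on its most variable genes, grouped the samples by day. Over all genes, edgeR called 0 between the labelled cultivars (613 at an unadjusted p under 0.05, and 4 called by DESeq2). It called 0 between the days and 301 (0.803%) for the interaction of day and cultivar. That interaction sets the 3 susceptible libraries of day 11 and the 2 resistant libraries of day 1 against the other 5. Each gene is therefore described both by labelled cultivar and by this combination of day and cultivar, and the libraries are named by their labels as deposited. A day difference that differs between the cultivars and a swap of cultivar labels on 1 day cannot be told apart here, so resistant minus susceptible holds for the labels as given.

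AAT, the predicted amino acid transporter, was among the steadier genes of these leaves. In the susceptible cultivar at day 1 it stood at 86.1 normalised CPM in the control and 74.0 with the inducer. In the resistant cultivar at day 1 it stood at 65.6 in the control and 86.6 with the inducer. At day 11 the susceptible libraries held 88.2 (control), 76.0 (biotype 1 alone) and 101 (inducer), and the resistant libraries 76.1, 83.6 and 92.1 in the same order. The highest library, the susceptible inducer of day 11, was 1.55-fold above the lowest, the resistant control of day 1. By library totals alone the range was 2.05-fold, from 50.6 to 104 CPM. Of the 9 neighbouring pairs in the order of levels, 6 differed by less than counting error, so most of the order between the extremes is not resolved. The SD of log2 normalised CPM over the 10 libraries was 0.18, and 7.57% of the 37468 genes had an SD as small or smaller. Among the 22065 genes that averaged 5 CPM or more, the share was 11.2%.

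**Figure D1:**
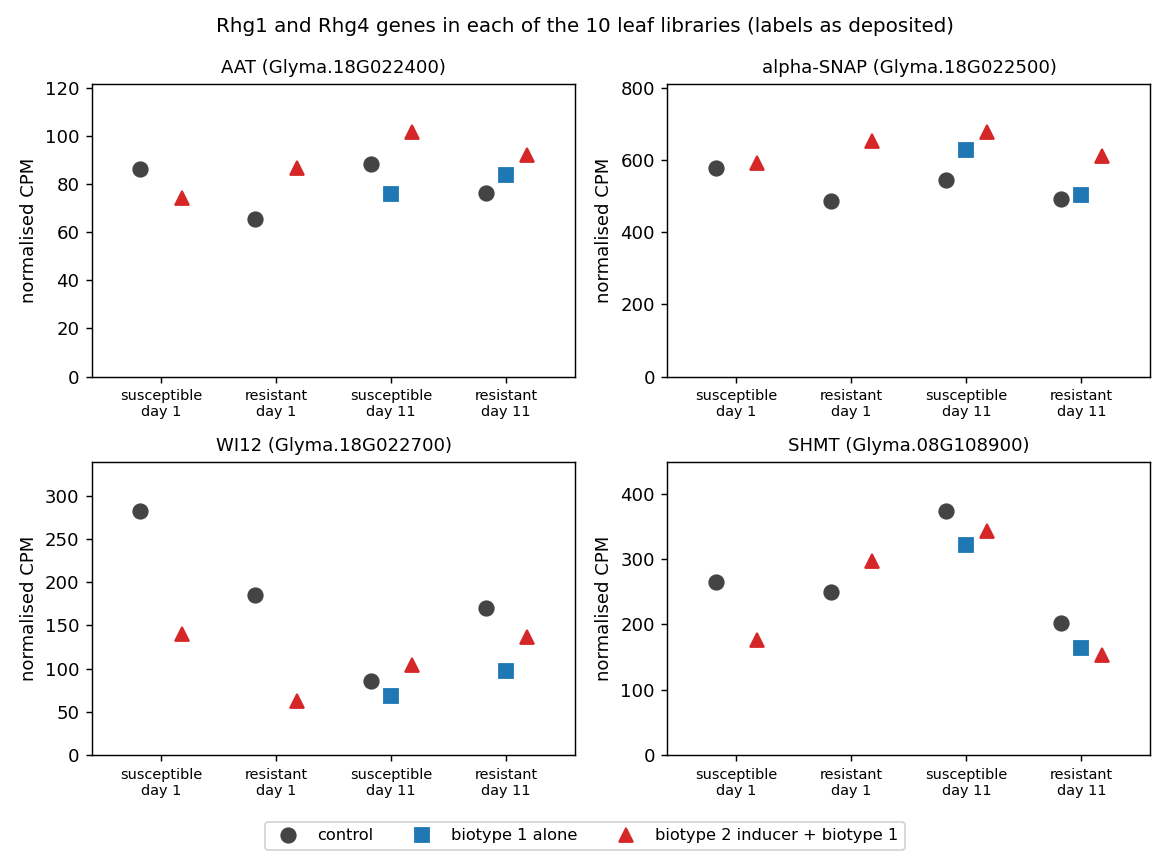
Normalised CPM (y axis, from 0) of each gene in each of the 10 libraries, grouped on the x axis by labelled cultivar and day, with 1 point per library and the symbol for the treatment. AAT and alpha-SNAP span 1.55-fold and 1.39-fold, whereas WI12 spans 4.52-fold and SHMT 2.45-fold.

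Alpha-SNAP, the vesicle-fusion cofactor, was as steady as AAT. Its levels at day 1 were 578 normalised CPM in the susceptible control, 591 in the susceptible inducer, 487 in the resistant control and 654 in the resistant inducer library. At day 11 they were 545 (control), 628 (biotype 1 alone) and 676 (inducer) in the susceptible cultivar, and 492, 504 and 612 in the resistant one. The 3 lowest libraries were labelled resistant, yet the resistant inducer of day 1 was the second highest of all. The whole range was 1.39-fold (2.00-fold by library totals, from 376 to 754 CPM) and the SD of log2 values was 0.17. As steady or steadier were 6.29% of all genes that passed the filter and 9.40% of those that averaged 5 CPM or more. Of the 9 neighbouring pairs, 7 differed by more than counting error. The 2 that did not were the day 1 libraries of the susceptible cultivar and the controls of the resistant one.

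WI12, the gene related to wound-inducible proteins, varied most of the 4 members. It stood at 283 normalised CPM in the susceptible control of day 1, the highest library, and at 62.6 in the resistant inducer of day 1, the lowest. The susceptible inducer and the resistant control of day 1 lay between them, at 139.6 and 185. At day 11 the susceptible libraries held 85.4 (control), 68.2 (biotype 1 alone) and 104 (inducer), and the resistant libraries 169.8, 97.0 and 137. All 3 resistant day 11 libraries exceeded the susceptible library of the same treatment, whereas both susceptible libraries of day 1 exceeded their resistant counterparts. The share of all genes with such an order was not counted, so the order is not shown to be particular to WI12. The 4.52-fold range gave an SD of log2 values of 0.68, and 84.1% of genes had an SD as small or smaller.

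The first question was whether the Rhg1 genes differ in level between the cultivars, as genes present in different numbers of copies could. None of the 4 members was called between the labelled cultivars by edgeR's quasi-likelihood test (0 of 4, against 0% of the 37468 genes; 0 by DESeq2). The fitted difference, resistant minus susceptible over both days, was -0.08 log2 for AAT (SE 0.18, unadjusted p = 0.66, adjusted p = 1). Its 95% interval runs from a resistant level of 0.709 to 1.26 times the susceptible one. For alpha-SNAP the difference was -0.13 (SE 0.22, unadjusted p = 0.576, adjusted p = 1 in edgeR), with an interval from 0.639 to 1.31 times. For WI12 it was -0.12 (SE 0.29, unadjusted p = 0.692, adjusted p = 1 in edgeR), with an interval from 0.570 to 1.48 times. The cultivars overlapped in all 3 genes: AAT spanned 65.6 to 92.1 normalised CPM in the resistant and 74.0 to 101 in the susceptible libraries, alpha-SNAP 487 to 654 and 545 to 676. The intervals still hold differences of up to the given sizes, so equal levels are not shown.

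The same question was asked of the combination of day and cultivar, because it was the comparison in which edgeR called genes. For AAT the 5 libraries labelled susceptible day 11 or resistant day 1 were at 0.993 times the other 5 (95% interval 0.745 to 1.32), and for alpha-SNAP at 1.05 times (0.736 to 1.51). The interaction terms behind these values, the day difference in the resistant minus that in the susceptible cultivar, were 0.020 (SE 0.35, edgeR adjusted p = 0.978) and -0.15 (SE 0.44, adjusted p = 0.860). For WI12 the same 5 libraries were at 0.613 times the others (0.38 to 0.99), with an interaction term of 1.41 (SE 0.59, unadjusted p = 0.0464, edgeR adjusted p = 0.207). Thus 0 of the 3 Rhg1 genes were called, where the interaction was called for 0.803% of all genes. Without the resistant control of day 1, WI12 was called (interaction 2.14, edgeR adjusted p = 0.0409), but so were 21.7% of 37395 genes. Over all leave-one-out fits its interaction lay between 0.94 and 2.14.

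**Figure D2:**
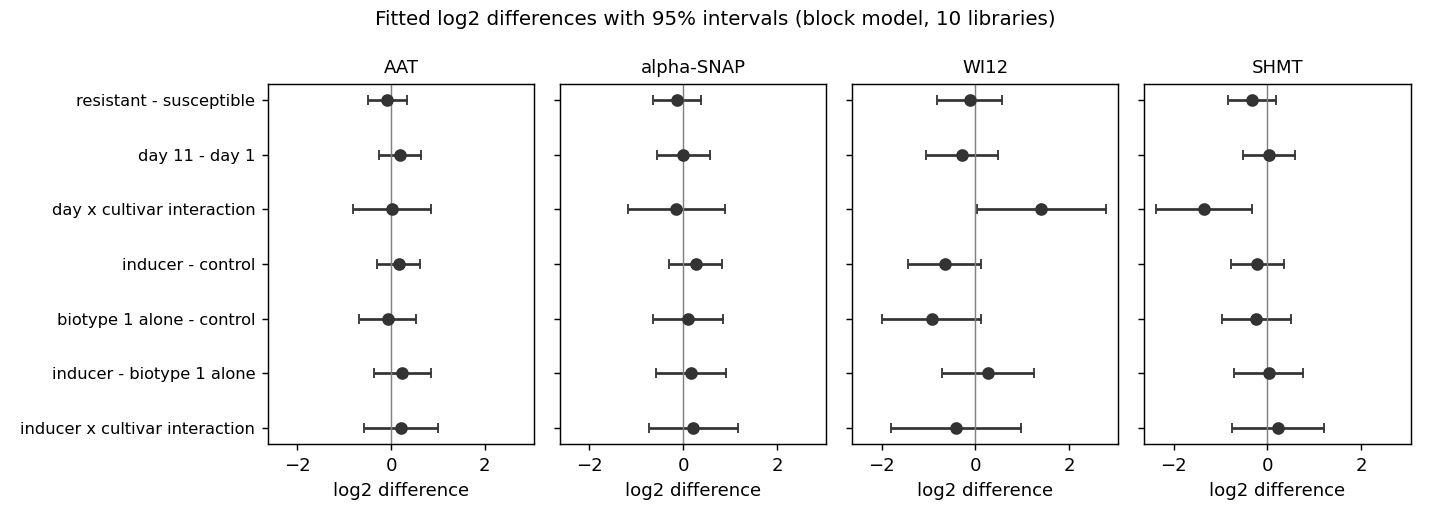
Fitted log2 differences (points) with 95% intervals (bars) from the model over all 10 libraries, for 7 comparisons in each of the 4 genes; the line marks no difference. The intervals of AAT and alpha-SNAP hold 0 in all 7 comparisons, and those of WI12 and SHMT exclude 0 only for the interaction of day and cultivar, where neither passed the adjusted threshold in edgeR (0.207 and 0.139).

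Genes that share 1 repeat can also be compared within a library, which needs no scaling between libraries. The ratio of alpha-SNAP to AAT estimated counts lay between 6.03 and 8.27 in the 10 libraries, a 1.37-fold range with an SD of 0.16 on the log2 scale. The libraries of the combination overlapped, with 6.18 to 8.27 in susceptible day 11 and resistant day 1 and 6.03 to 7.99 in the others. The ratio of alpha-SNAP to WI12 did not stay in such a band: it ran from 2.04 in the susceptible control of day 1 to 10.5 in the resistant inducer of day 1, with an SD of 0.77. AAT and alpha-SNAP thus kept their proportion within 1.37-fold over all libraries, and WI12 moved against both by 4.55-fold (AAT) and 5.11-fold (alpha-SNAP). AAT and alpha-SNAP were each steady on their own (SD 0.18 and 0.17). Ratios between other steady genes were not compared, so the steady proportion is not shown to be particular to a shared repeat. Over the 10 libraries Pearson's r of log2 normalised CPM was 0.61 between AAT and alpha-SNAP (0.87 by library totals), -0.25 between AAT and WI12 and -0.43 between alpha-SNAP and WI12. These correlations describe libraries that share controls and scaling, and no test was made of them.

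**Figure D3:**
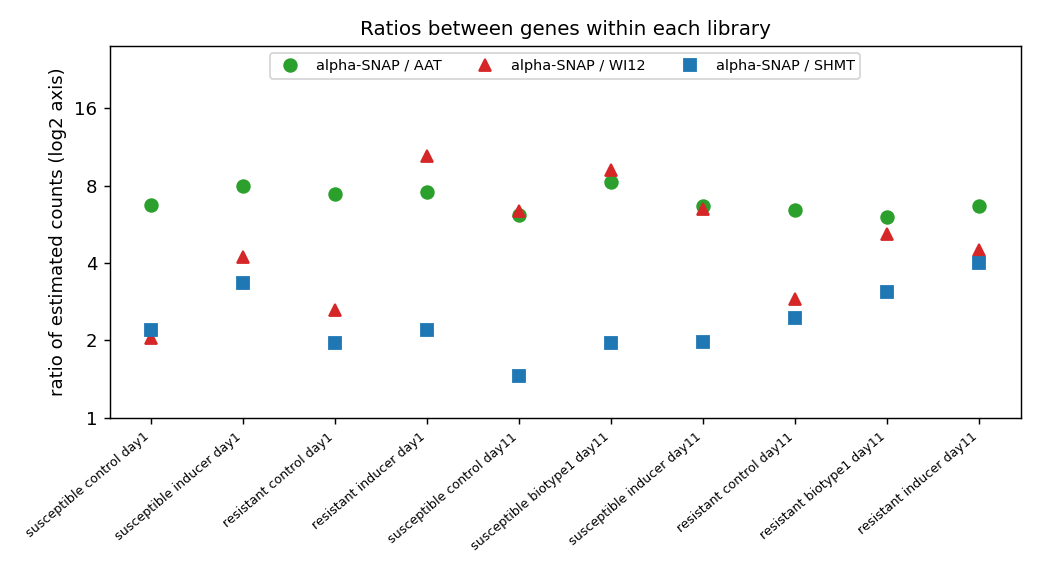
Ratio of the estimated counts of alpha-SNAP to those of AAT, WI12 and SHMT (y axis, log2 scale) within each of the 10 libraries (x axis). The ratio to AAT stays between 6.03 and 8.27, and the ratio to WI12 runs from 2.04 to 10.5.

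Identifiers are numbered along the chromosome, which allowed the members to be set beside their neighbours. The RefSeq table of assembly Glycine_max_v4.0 lists Rhg1-GmAAT, SNAP18, 1 gene without a name and WI12 in that order, but 0 of the file's identifiers matched it, so the neighbours below are given by identifier only. Glyma.18G022300, numbered just before AAT, was as steady as AAT, at 8.39 to 12.7 normalised CPM (SD of log2 0.18). Glyma.18G022600, numbered between alpha-SNAP and WI12, ranged from 1.22 to 10.2 normalised CPM (SD 0.88). Its interaction term was 2.37 (SE 0.81, unadjusted p = 0.0219, edgeR adjusted p = 0.154), in the direction of WI12. Of the 20 identifiers flanking these 5, 12 passed the filter and 0 were called in any of the 7 comparisons. Their labelled cultivar differences ranged from -0.30 to 0.36 log2 with a median of 0.011, beside a median of -0.0042 over all 37468 genes. The values of the 3 Rhg1 members, -0.13 to -0.08, lay inside that range. The flanks' interaction terms ranged from -9.13 to 0.99 with a median of 0.14, and 3 of the 12 had an unadjusted p under 0.05 (8734 of all 37468 genes did). These 3 were negative, opposite to WI12, and are named after their values were seen: Glyma.18G022800, numbered next to WI12 (-2.42), Glyma.18G021300 (-2.26) and Glyma.18G023600 (-9.13, with levels from 0.104 to 20.8 normalised CPM, so that the size of its term depends on counts near 0).

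**Figure D4:**
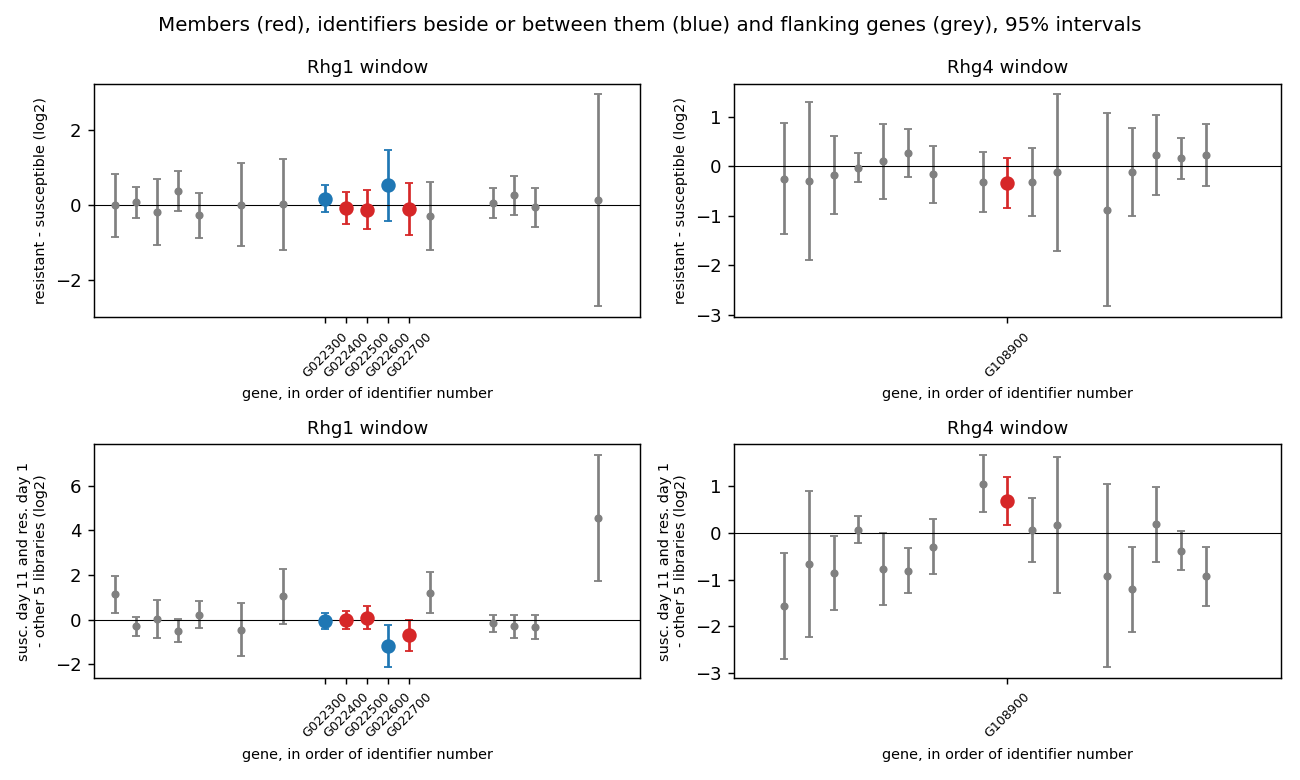
Fitted log2 differences with 95% intervals for the genes around Rhg1 (left) and Rhg4 (right), in order of identifier number: resistant minus susceptible (top), and the libraries labelled susceptible day 11 or resistant day 1 minus the other 5 (bottom). AAT and alpha-SNAP lie near 0 in both rows, and SHMT lies at 0.68 in the bottom row.

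SHMT, the serine hydroxymethyltransferase of Rhg4, had an interaction of day and cultivar opposite in sign to that of WI12. At day 1 it stood at 264 normalised CPM in the susceptible control, 177 in the susceptible inducer, 249.7 in the resistant control and 297 in the resistant inducer library. At day 11 the susceptible libraries held 374 (control), 321 (biotype 1 alone) and 342 (inducer), and the resistant libraries 202, 163 and 153. By normalised CPM the 3 susceptible libraries of day 11 were the highest of all, and all 3 lay above both susceptible libraries of day 1. By library totals the resistant inducer of day 1 (343 CPM) exceeded the susceptible control (339) and inducer (324) of day 11. The 3 resistant libraries of day 11 lay below both resistant libraries of day 1 by normalised CPM. By library totals the resistant control of day 11 (207 CPM) lay above that of day 1 (193). How many of all genes have such an order was not counted. All 9 neighbouring pairs in the order of levels differed by more than counting error.

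The interaction term of SHMT was -1.35 (SE 0.43, unadjusted p = 0.0166, edgeR adjusted p = 0.139), so that the 5 libraries labelled susceptible day 11 or resistant day 1 were at 1.60 times the other 5 (95% interval 1.12 to 2.28). It was not called by edgeR, against 0.803% of all genes called, and 73.0% of genes had an interaction term of that size or smaller. DESeq2 called it (interaction -1.36, adjusted p = 0.00522), as it did 11.7% of genes, whereas limma did not (-1.16, adjusted p = 0.232). Without the resistant control of day 1 edgeR called it too (-1.66, adjusted p = 0.0359), with 21.7% of genes. Over all leave-one-out fits the interaction of SHMT lay between -1.66 and -1.02. The 2 sides overlapped, at 249.7 to 374 and 153 to 264 normalised CPM, through the control libraries of day 1. Between the labelled cultivars the difference was -0.33 (SE 0.22, unadjusted p = 0.165, adjusted p = 1 in edgeR), and between the days 0.034 (SE 0.24, adjusted p = 1). The ratio of AAT to SHMT counts, which needs no scaling, did not overlap between the sides, at 0.236 to 0.296 and 0.326 to 0.603. The ratios of the other 2 Rhg1 genes to SHMT did overlap, at 1.46 to 2.20 and 2.19 to 4.01 for alpha-SNAP and at 0.210 to 0.741 and 0.594 to 1.07 for WI12. How often the ratio of any other gene pair parts the sides was not counted, so nothing is concluded from the AAT ratio.

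Of the 20 identifiers flanking SHMT, 15 passed the filter, and 0 were called in any comparison. Their interaction terms ranged from -2.10 to 3.13 with a median of 1.33, beside -0.0095 over all genes, and 7 of the 15 had an unadjusted p under 0.05, as did 8734 of all 37468 genes. The lowest, Glyma.08G108800, is numbered next to SHMT and was singled out after its values were seen. It had an interaction term of -2.10 (SE 0.52, edgeR adjusted p = 0.0970) and ran from 206 to 938 normalised CPM. The positive median shows that most of these neighbours went in the direction opposite to SHMT.

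The second question was whether aphids change the levels of these genes. For the inducer against control, 0 of the 4 members were called by edgeR, against 0% of 37468 genes (2852 at an unadjusted p under 0.05; DESeq2 called 131 genes and 0 members). WI12 had the largest fitted difference of the 4, -0.66 (SE 0.33, unadjusted p = 0.0862, adjusted p = 0.676 in edgeR), with a 95% interval from 0.371 to 1.09 times the control. With the inducer, WI12 was at 0.338 times the control in the resistant cultivar at day 1, 0.493 times in the susceptible at day 1 and 0.804 times in the resistant at day 11. In the susceptible cultivar at day 11 it was at 1.22 times the control. By library totals the pairs of day 1 were at 0.505 times (resistant) and 0.425 times (susceptible), so their order depends on the scaling. The inducer library was thus below its control in 3 of 4 pairs, and further below at day 1.

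Alpha-SNAP stood above its control in all 4 inducer libraries by normalised CPM, at 1.02 times in the susceptible cultivar at day 1, 1.34 in the resistant at day 1, 1.24 in the susceptible at day 11 and 1.24 in the resistant at day 11. The 95% counting interval of the first ratio holds 1 (0.998 to 1.05), and by library totals that pair was at 0.881 times and the resistant pair of day 1 at 2.00 times. The fitted difference was 0.27 (SE 0.24, unadjusted p = 0.297, adjusted p = 0.799 in edgeR), with an interval from 0.814 to 1.79 times. AAT lay above its control in 3 pairs, at 1.15 to 1.32 times, and below in the susceptible pair of day 1, at 0.860 times. The highest of these, the resistant pair of day 1, was at 1.97 times by library totals. The fitted difference of AAT was 0.16 (SE 0.19, adjusted p = 0.852 in edgeR). SHMT lay below its control in 3 pairs, at 0.668 to 0.915 times, and above in the resistant pair of day 1, at 1.19 times (1.78 by library totals). Its fitted difference was -0.22 (SE 0.24, adjusted p = 0.840 in edgeR). Counting intervals compare 2 libraries and not conditions, and cover counting error only.

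Biotype 1 alone could be compared with control at day 11 only, in 1 pair per cultivar, and edgeR called 0 of the 4 members (0% of genes; 1527 at an unadjusted p under 0.05; DESeq2 called 13 genes and 0 members). WI12 was at 0.799 times the control in the susceptible and 0.572 times in the resistant cultivar, and by library totals at 0.969 (counting interval 0.907 to 1.03, which holds 1) and 0.607 times. The fitted difference was -0.93 (SE 0.45, unadjusted p = 0.0761, adjusted p = 0.963 in edgeR), or 0.525 times, which is further from 1 than either pair, since the model also uses the inducer libraries of day 1 to place the controls. SHMT was also below its control in both pairs, at 0.859 and 0.809 times, although the susceptible pair was at 1.04 times by library totals. Alpha-SNAP was at 1.15 and 1.03 times and AAT at 0.862 and 1.10 times in the susceptible and the resistant cultivar. By library totals the susceptible AAT pair was on the other side of 1, at 1.05 times, with a counting interval that holds 1 (0.981 to 1.11). The fitted differences of SHMT, alpha-SNAP and AAT were -0.24 (SE 0.31), 0.10 (SE 0.32) and -0.07 (SE 0.26), with edgeR adjusted p between 0.967 and 0.983.

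The inducer with biotype 1 was also set against biotype 1 alone, in 1 pair per cultivar at day 11. The fitted value takes its inducer effect from both days, so it is not a value of day 11 alone. EdgeR called 0 of 4 members (0% of genes; 256 at an unadjusted p under 0.05; DESeq2 called 5 genes and 0 members). WI12 was at 1.53 times in the susceptible and 1.41 times in the resistant cultivar, AAT at 1.33 and 1.10 times, and alpha-SNAP at 1.08 and 1.21 times. SHMT was at 1.07 and 0.934 times. Scaled by library totals, the susceptible pairs of alpha-SNAP and SHMT were on the other side of 1, at 0.925 and 0.916 times. The WI12 pairs were then at 1.31 times (susceptible) and 1.46 times (resistant), so their order depends on the scaling. The fitted differences, 0.27 (SE 0.41) for WI12, 0.24 (SE 0.26) for AAT, 0.17 (SE 0.32) for alpha-SNAP and 0.024 (SE 0.31) for SHMT, had intervals that hold 0. For WI12 the fit, 1.21 times, lay below both pairs of day 11. These 3 aphid comparisons share libraries and are not independent. The inducer difference did not pass the test of a difference between the cultivars in any member (0 of 4 called by edgeR, 0% of genes, 4512 at an unadjusted p under 0.05; DESeq2 called 826 genes and 0 members), with interaction terms from -0.42 (SE 0.57) for WI12 to 0.23 (SE 0.40) for SHMT. The day difference was likewise called in 0 of 4 members (0% of genes; 378 at an unadjusted p under 0.05; DESeq2 called 6 genes and 0 members).

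The genes whose pattern over the 10 libraries was most like each member were found among the 22065 genes that averaged 5 CPM or more, by Pearson's r of log2 normalised CPM. For AAT they were Glyma.09G015800 (r = 0.92), Glyma.05G246700 (0.92) and Glyma.05G118700 (0.92). For alpha-SNAP they were Glyma.14G024900 (0.98), Glyma.15G227300 (0.97) and Glyma.09G249900 (0.97). For WI12 they were Glyma.11G234300 (0.99), Glyma.08G325900 (0.96) and Glyma.17G185000 (0.95), and for SHMT Glyma.04G099900 (0.98), Glyma.11G146900 (0.97) and Glyma.U037600.1 (0.97). An r of at least 0.9 was reached by 5 genes with AAT, 63 with alpha-SNAP, 130 with WI12 and 217 with SHMT. None of the 3 other members was among the 3 genes nearest to any member.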

How the data were processed

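Reads were trimmed by the authors (Trimmomatic 0.36) and assigned by Salmon 0.9.1 to primary transcripts of Wm82.a2.v1, and the authors deposited estimated counts per gene, not scaled for depth or length. Salmon divides reads among transcripts of that reference that they match alike. Each member is 1 identifier there, so reads of its alleles or extra copies add to 1 value, apart from any shared with another gene. Strand and bias options of Salmon were not given in the sources used here. Columns (10) were matched to the libraries by title, and counts were rounded for the count models.

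The filter kept genes that exceeded 0.5 CPM in any library. EdgeR 4.0.16 in R 4.3.3 (TMM, robust quasi-likelihood test, Benjamini-Hochberg adjustment over 37468 genes, threshold 0.05) fitted a mean for each labelled cultivar and day plus inducer and biotype 1 effects, with 4 residual degrees of freedom. A term for inducer by cultivar left 3. This model replaced an additive one, whose spread holds the day by cultivar pattern. Standard errors were taken from the F statistic. Ratios of 2 libraries have exact binomial 95% intervals for counting error. The limit of 3 counts lay between 0.117 and 0.128 CPM. Alternatives were RLE factors, DESeq2 1.42.0, limma 3.58.1 on log2 CPM, other filters, the additive model and each library left out. Tests were also run on simulated counts with less spread than these data, which does not show how they perform on these data. Figures used matplotlib 3.10.9. Members, windows and lists were chosen with earlier results of these data known. Genes named besides members were the identifiers beside them and the 3 most correlated genes per member. Lists of related genes by product name were not run, since 0 identifiers matched the reference table.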

Additional observations from a re-analysis of the deposited data

Results flagged for a closer look

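SHMT, the Rhg4 gene, lay on opposite sides in the labelled cultivars: every susceptible library of day 11 was above every susceptible library of day 1, and every resistant library of day 11 below every resistant library of day 1, by normalised CPM. The test of this difference, the interaction of day and cultivar, gave -1.35 (SE 0.43, unadjusted p = 0.0166, adjusted p = 0.139 in edgeR), which missed the threshold. A term of that size or smaller was found in 73.0% of genes. The share of all genes with such an order of libraries is not given here, so the order is not shown to be particular to SHMT. By library totals the resistant libraries overlapped, with 193 CPM in the control of day 1 and 207 in the control of day 11.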

How the results depend on the processing

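Of 424 values of the 4 members under alternatives, 386 kept their direction and side of the threshold, 35 changed sign and 3 passed the threshold only there. The number of members called stayed at 0 in every comparison except the interaction of day and cultivar, where DESeq2 called 1 (SHMT, -1.36) and leave-one-out fits called between 0 and 2 (SHMT and WI12, both without the resistant control of day 1). With all 10 libraries, the sign changed for the cultivar difference of WI12 in the additive model (0.026), the day difference of alpha-SNAP with RLE factors (-0.0027) and DESeq2 (-0.0027), the interaction of AAT with the stricter filter (-0.0082) and that of alpha-SNAP in limma (0.027). Leaving out 1 library gave cultivar differences of -0.20 to 0.062 for AAT and -0.46 to 0.16 for WI12. It gave day differences of -0.074 to 0.086 for alpha-SNAP, -0.60 to 0.015 for WI12 and -0.11 to 0.20 for SHMT. Interactions of day and cultivar ran from -0.22 to 0.26 for AAT and from -0.29 to 0.0064 for alpha-SNAP. Biotype 1 alone against control ran from -0.20 to 0.097 for AAT, and the inducer against biotype 1 alone from -0.11 to 0.40 for WI12 and -0.059 to 0.087 for SHMT. The inducer by cultivar term ran from -0.014 to 0.50 for AAT, -1.18 to 0.21 for WI12 and -0.063 to 0.60 for SHMT. The cause of these changes was not tested. For the inducer against control, no alternative or left-out library changed a sign, but leaving out 1 library moved WI12 between -0.94 and -0.33, SHMT between -0.37 and -0.073, AAT between 0.085 and 0.31 and alpha-SNAP between 0.22 and 0.37.

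When TMM sizes replaced the totals, 5 of 32 pair ratios moved to the other side of 1, all in the susceptible cultivar: AAT for biotype 1 to control at day 11 (0.862), whose interval by totals held 1, alpha-SNAP for inducer to control at day 1 (1.02) and inducer to biotype 1 at day 11 (1.08), and SHMT at day 11 for biotype 1 to control (0.859) and inducer to biotype 1 (1.07). Of the 12 most similar genes, 4 were also chosen by Spearman's rho and 7 by r without TMM, so these names depend on the measure. No pairing of replicates was possible because their RNA was pooled into 1 library per condition, but the model's block means compared treatments within each labelled cultivar and day. With 1 pooled library per condition, depth was not the limit for these genes, whose lowest count was 1245.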
